A study of Homo sapiens with 12 samples.

Results

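The S100 proteins are a family of small EF-hand proteins that bind calcium. Here 9 of their genes were followed in RNA that co-precipitated with eIF4E: S100A2, S100A3, S100A4, S100A6, S100A8, S100A10, S100A11, S100A13 and S100P. They were chosen by name, as every probe set whose single gene in the platform annotation is one of these symbols, which gave 11 probe sets of 19064, and 9 genes of 11963 with a probe set of their own. The study used MDA-MB-231 cells, an established human line of triple-negative breast cancer, and measured precipitated RNA on Affymetrix arrays. The groups of 3 arrays each were eIF4E precipitates of irradiated cells, eIF4E precipitates of untreated cells, IgG precipitates of irradiated cells and IgG precipitates of untreated cells. Irradiated cells had received 2 Gy of X-rays and were collected after 6 h, and the IgG precipitates give the background of the procedure. All cells were of 1 line, grown in the same serum-containing medium, with no genetic change named, and no array of unprecipitated RNA was analysed here. The replicates are called biological in the design text, but nothing says which arrays came from separate cultures, so p-values measure only the spread between these arrays.

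S100 proteins mostly form dimers, and on binding calcium many of them expose a surface that docks onto annexins, cytoskeletal motors or enzymes. Most of the family's genes lie next to each other in a cluster on chromosome 1, and several are known for their expression in epithelial tumours, where S100A4 in particular is tied to motility and metastasis. The protein eIF4E holds the cap at the start of a messenger RNA and recruits the rest of the initiation machinery, so an eIF4E precipitate is set against an IgG precipitate to ask which messengers are associated with it.

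Signals are the deposited MAS5 intensities on a linear scale. Their trimmed mean, averaged over the 12 arrays, was 500.2, and each value is read relative to its own array. The mesenchymal genes listed as markers of MDA-MB-231 were bright: VIM had 9157 to 12530 in eIF4E precipitates and 16730 to 27300 in IgG precipitates, and all 7 markers on the array passed the filter on low values. Of 9 luminal epithelial markers, 5 (ESR1, PGR, FOXA1, CDH1 and TFF1) did not pass it, while EPCAM, GATA3, KRT19 and ERBB3 did. Leukocyte PTPRC was at 22.1 to 30.4 in eIF4E precipitates and 3.15 to 46.0 in IgG precipitates, and keratinocyte KRT5 at 1.73 to 13.9 in eIF4E and 2.79 to 7.81 in IgG precipitates. Of 10 leukocyte markers only CD14 passed the filter, and of 9 keratinocyte markers KRT10 and FLG. The array's controls differed by antibody. The probe set for Alu repeats read 13482 to 18476 on eIF4E arrays against 36876 to 53246 on IgG arrays, the 3'/5' ratio of actin, a sign of RNA or label length, was 1.33 to 1.53 against 2.96 to 5.38, and that of GAPDH 1.13 to 1.31 against 2.03 to 2.78. The poly-A controls had a median of 13.8 on eIF4E arrays (highest 17.1) against 437 on IgG arrays (lowest 309). The hybridization controls were dimmer on eIF4E arrays by 2.60 on the log2 scale. Scaling the arrays to the hybridization controls would move every antibody difference by 2.60 towards eIF4E, more than the size of any lower S100 value given here. No fit was run on such a scale. The control values move with every difference between antibodies given here, and their part in it was not tested.

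The sequence around the transcription start is shown for the 5 tested genes with a single start entry in the RefSeq table, because the first transcribed base is the one that carries the cap to which eIF4E binds. Each line gives, 5′ to 3′ on the minus strand of GRCh38.p14, the 40 bases before the start in lower case and the first 10 transcribed bases in capitals. The windows lie at chr1:153535982-153536031 for S100A6, chr1:153545797-153545846 for S100A4, chr1:153549249-153549298 for S100A3, chr1:151993850-151993899 for S100A10 and chr1:152036995-152037044 for S100A11.
S100A6: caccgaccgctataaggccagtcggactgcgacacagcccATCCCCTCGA
S100A4: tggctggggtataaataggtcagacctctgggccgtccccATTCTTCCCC
S100A3: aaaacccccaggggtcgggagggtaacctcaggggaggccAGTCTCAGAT
S100A10: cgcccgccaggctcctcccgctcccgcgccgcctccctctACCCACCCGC
S100A11: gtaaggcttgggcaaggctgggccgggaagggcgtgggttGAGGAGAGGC
The letters TATAA, searched on both strands, stand in the 40 bases of S100A6 and S100A4 and not in those of S100A3, S100A10 and S100A11. Over all 14 entries of the 9 genes they stand in 5, one each of S100A4, S100A6, S100A8, S100A13 and S100P, against 5.48% of the 35116 entries in the table. No entry of the 9 genes begins with C and 4 further pyrimidines, against 4.07% of all entries, and GGGCGG stands in none of their 40-base stretches, against 14.3% of all. With 14 entries, a count of 0 says little at such shares. In the whole 300-base window around the start GGGCGG stands in 5 of the 14 entries, against 45% of all. TATAA stands there in 6, against 20.4% of all. Some entries belong to the same gene, and a match is a description of these letters only.

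Messengers of S100A2, S100A3, S100A10, S100A11 and S100A13 were higher in eIF4E precipitates than in IgG precipitates, by 1.47 to 4.60 times over both treatments. S100A6 was lower at 0.597 times in the deposited signals, and S100A4 did not pass the test there. After quantile normalization both were called higher, by 0.29 and 0.75 on the log2 scale. S100A8 and S100P were too dim to be tested. Differences were fitted with limma on log2(signal + 16) over the 12 arrays and adjusted with Benjamini-Hochberg over 7178 genes, and those with an adjusted p under 0.05 were called. Of the 7 tested genes, 5 were called higher and 1 lower for the mean of both treatments, where 32.5% of all genes tested were called higher and 38.2% lower, 70.7% in all. Their median difference was 1.28, against -0.07 for all genes tested. Of the 7, 5 lie in the shortest of 5 classes of genes by length in the genome, a measure chosen after the data were seen. In that class 59.2% of genes were called higher and 14.7% lower, with a median of 0.55. The 7 genes passed the filter in every group, since the lowest signal of any of them was 88.4 and the filter stood at 57.4. A difference between antibodies compares what each precipitate recovered, relative to its own array, and does not measure how much messenger the cells held. In these bulk precipitates, fewer cells holding a messenger and fewer copies per cell also cannot be told apart.

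**Figure D1:**
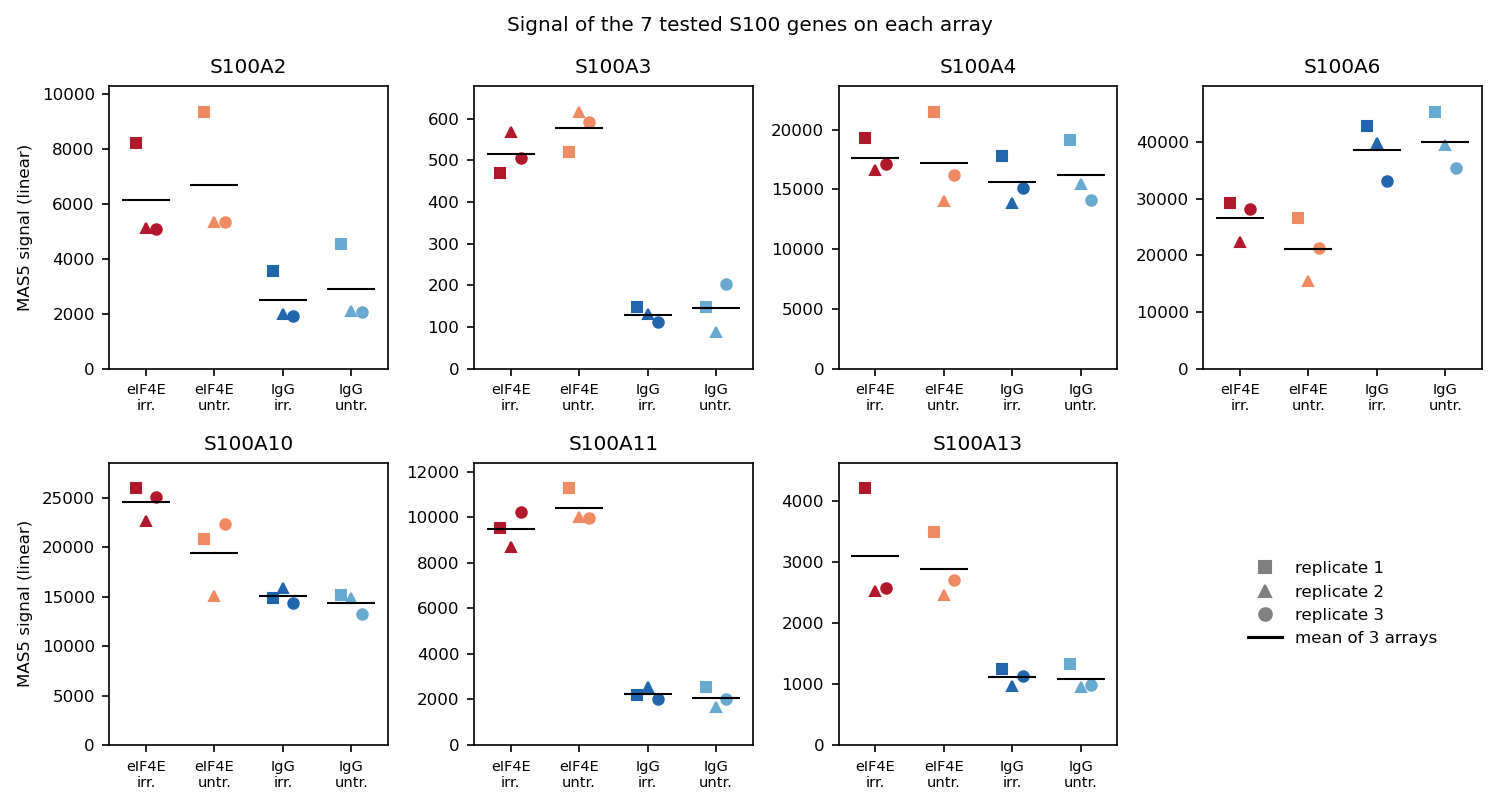
MAS5 signal (linear scale, each panel with its own axis from 0) of the 7 tested S100 genes on each of the 12 arrays, in eIF4E and IgG precipitates of irradiated and untreated cells; points are arrays, bars are group means. S100A11 lies between 8709 and 11271 in eIF4E precipitates and between 1677 and 2547 in IgG precipitates, while S100A6 lies lower in eIF4E than in IgG precipitates.

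S100A11, also called calgizzarin, binds annexin A1 and takes part in growth control of epithelial cells. Its signal was 9536, 8709 and 10216 in eIF4E precipitates of irradiated cells and 11271, 10005 and 9977 in those of untreated cells. In IgG precipitates it was 2207, 2544 and 2030 after irradiation and 2547, 1677 and 2000 without it. Every eIF4E array was above every IgG array by a wide margin, and the arrays of each antibody lay close together. Over both treatments it averaged 9952 ± 840 in eIF4E precipitates and 2167 ± 339 in IgG precipitates (SD, n = 6 each), a log2 difference of 2.20 ± 0.11 (SE), with an adjusted p of 2.06e-10 by limma. The RefSeq table names 10 pseudogenes after S100A11, so its probe set may also read near-identical copies and the value is uncertain to that extent. Pseudogenes of the other S100 genes were not counted.

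S100A3, a cysteine-rich member known from the hair cuticle, was the dimmest of the 7 and had the next highest difference. It read 470, 567 and 506 in eIF4E precipitates of irradiated cells and 521, 617 and 592 in those of untreated cells. In IgG precipitates it read 147, 130 and 112 after irradiation and 147, 88.4 and 204 without it. The highest IgG array was below the lowest eIF4E array, and the IgG arrays of untreated cells were the most scattered. The log2 difference was 1.90 ± 0.16 (SE; adjusted p = 2.33e-08, limma), or 3.73 times.

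S100A13 takes part in the release of FGF1 without a signal peptide. Its brighter probe set gave 4218, 2536 and 2575 in eIF4E precipitates of irradiated cells, and 3506, 2465 and 2704 in those of untreated cells. The IgG precipitates gave 1241, 965 and 1128 after irradiation and 1337, 947 and 991 without it. Antibodies did not overlap, and replicate 1 was the highest of its group in all 4 groups. The log2 difference was 1.41 ± 0.14 (SE; adjusted p = 1.95e-07, limma). The other probe set of S100A13 was near background, at 15.3 to 68.6 in eIF4E precipitates and 2.65 to 45.5 in IgG precipitates, and averaging both probe sets lowered the log2 difference to 0.69 (adjusted p = 0.00035, limma).

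S100A2, a largely nuclear protein of basal epithelial cells and keratinocytes, had 8197, 5113 and 5077 in eIF4E precipitates of irradiated cells. It had 9339, 5330 and 5343 in those of untreated cells. In IgG precipitates it had 3557, 1987 and 1918 after irradiation and 4532, 2089 and 2069 without it. Here too no IgG array reached an eIF4E array, and replicate 1 stood far above the other two in every group. The log2 difference was 1.28 ± 0.22 (SE; adjusted p = 6.25e-05, limma), and 1.36 without replicate 1 of every group (adjusted p = 1.12e-08, limma).

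S100A10, or p11, has lost the ability to bind calcium and forms a tetramer with annexin A2 at the cell surface, where it binds plasminogen. Its signal was 25992, 22684 and 25127 in eIF4E precipitates of irradiated cells and 20874, 15052 and 22322 in those of untreated cells. In IgG precipitates it was 14910, 15900 and 14376 after irradiation and 15141, 14834 and 13220 without it. The antibodies were apart in irradiated cells, while in untreated cells replicate 2 of the eIF4E arrays fell just below the highest IgG array. The log2 difference over both treatments was 0.56 ± 0.10 (SE; adjusted p = 9.34e-05, limma), and quantile normalization raised it to 1.22 (adjusted p = 1.13e-09, limma).

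S100A4 and S100A6 did not go with the other 5. S100A4, also known as metastasin, binds non-muscle myosin and is known for its part in cell motility. It gave 19273, 16582 and 17133 in eIF4E precipitates of irradiated cells and 21506, 14039 and 16164 in those of untreated cells, against 17796, 13876 and 15102 in IgG precipitates of irradiated cells and 19098, 15430 and 14122 in those of untreated cells. The antibodies overlapped almost completely. The log2 difference was 0.13 ± 0.11 (SE), with a 95% interval of -0.11 to 0.37 and an adjusted p of 0.316 by limma.

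S100A6, or calcyclin, is a protein of proliferating cells that binds the calcyclin-binding protein CACYBP. It gave 29161, 22354 and 28148 in eIF4E precipitates of irradiated cells and 26542, 15489 and 21344 in those of untreated cells. In IgG precipitates it gave 42853, 39780 and 33186 after irradiation and 45366, 39400 and 35347 without it. Every eIF4E array was below every IgG array. The mean was 23840 ± 5145 in eIF4E precipitates and 39322 ± 4531 in IgG precipitates (SD, n = 6 each), and the log2 difference was -0.75 ± 0.13 (SE; adjusted p = 5.21e-05, limma).

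Both results depended on how arrays were set against each other. After quantile normalization, which gives every array the same distribution of signals, S100A6 was higher in eIF4E precipitates by 0.29 on the log2 scale (adjusted p = 0.00236, limma) and S100A4 by 0.75 (adjusted p = 2.55e-07, limma). With each array centred on its median the log2 difference was -0.61 for S100A6 (adjusted p = 0.000926, limma) and 0.26 for S100A4 (adjusted p = 0.0805, limma). The upper end of the signals differed between antibodies: the brightest probe set of an array read 21140 to 29161 on eIF4E arrays and 39961 to 59632 on IgG arrays. Counted down from the brightest of 22215 probe sets, S100A6 stood at places 1 to 21 (median 4) on eIF4E arrays and at places 9 to 23 (median 12) on IgG arrays, so its place was mostly nearer the top where its signal was lower. S100A4 stood at places 21 to 87 on eIF4E arrays and 148 to 221 on IgG arrays, and S100A10 at 3 to 27 and 175 to 212. Both were nearer the top on every eIF4E array than on any IgG array. Among the 100 brightest genes tested, which include S100A4, S100A6 and S100A10, 9 were called higher and 64 lower in the deposited signals, with a median of -0.47. After quantile normalization 37 were called higher and 34 lower, with a median of 0.04. S100A2, S100A3, S100A11 and S100A13 were higher in eIF4E precipitates under each of these scalings.

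**Figure D2:**
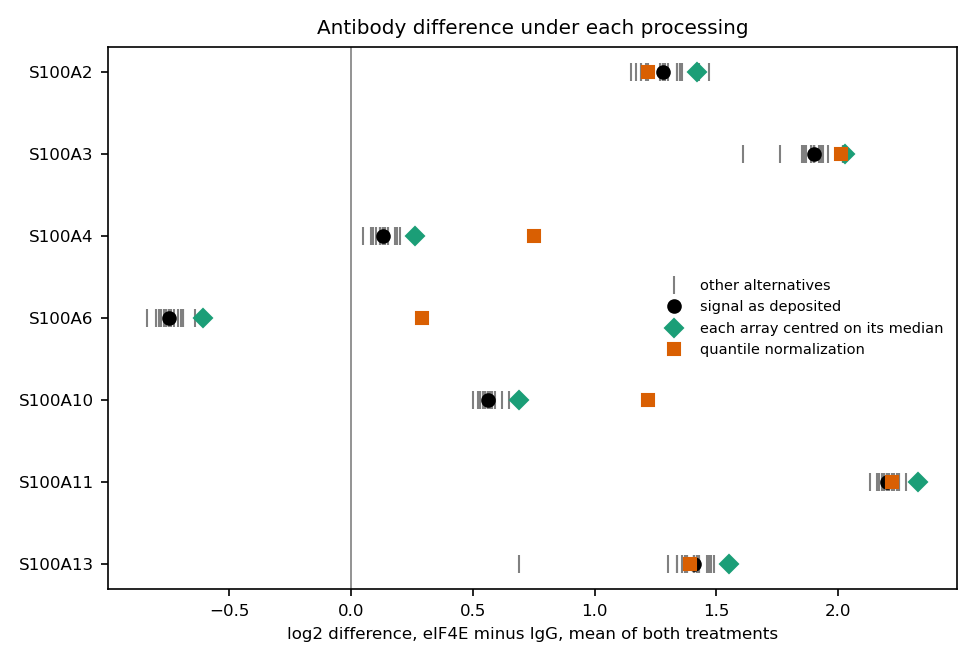
Log2 difference, eIF4E minus IgG, as the mean of both treatments, of the 7 tested S100 genes under different processing. Symbols give the signals as deposited, after quantile normalization and with each array centred on its median. Grey ticks give the values under the other alternatives run, and no intervals are drawn. S100A6 lies at -0.75 as deposited and at 0.29 after quantile normalization, and S100A4 at 0.13 and 0.75.

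Taken treatment by treatment, the same 6 genes were called with the same signs. In irradiated cells 5 of the 7 tested genes were called higher and 1 lower, where 59.5% of all genes were called, 27.2% higher and 32.3% lower. In untreated cells 5 were called higher and 1 lower, where 58.9% of all genes were called, 27.2% higher and 31.7% lower. The arrays of the antibodies did not overlap for 6 of the 7 in irradiated cells, where 62.4% of all genes did not, and for 5 of the 7 in untreated cells, where 66.7% did not. Over both treatments they did not overlap for 5 of the 7, where 49.9% of all genes did not. S100A11 differed by 2.06 ± 0.15 in irradiated cells and 2.34 ± 0.15 in untreated cells (log2 ± SE, limma). S100A6 differed by -0.54 ± 0.18 in irradiated cells (adjusted p = 0.0149, limma) and by -0.95 ± 0.18 in untreated cells (adjusted p = 0.000236, limma). The difference of S100A10 was 0.71 ± 0.14 in irradiated cells (adjusted p = 0.000423, limma) and 0.41 ± 0.14 in untreated cells (adjusted p = 0.0186, limma). S100A6 in irradiated cells was no longer called without eIF4E replicate 2 (-0.42, adjusted p = 0.0804) or IgG replicate 1 (-0.46, adjusted p = 0.0557, both limma). S100A10 in untreated cells was no longer called without eIF4E replicate 1 (0.35, adjusted p = 0.0705), eIF4E replicate 3 (0.30, adjusted p = 0.116) or IgG replicate 3 (0.35, adjusted p = 0.075, all limma).

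**Figure D3:**
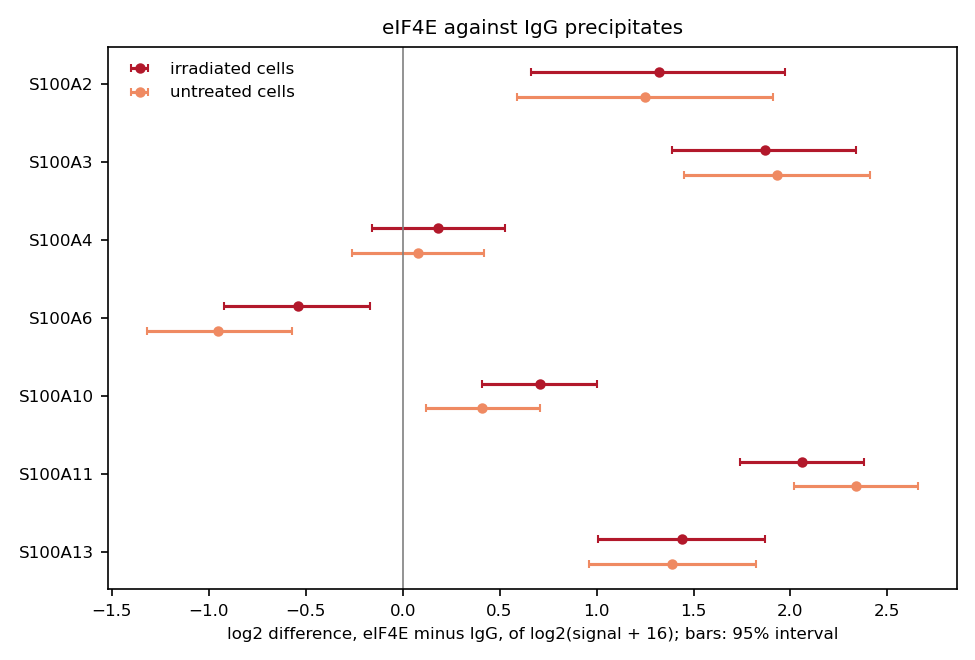
Log2 difference, eIF4E minus IgG, of the 7 tested S100 genes in irradiated and in untreated cells, from the deposited signals; bars are 95% intervals. S100A2, S100A3, S100A11 and S100A13 lie at 1.25 or more in both, S100A4 spans 0, and S100A6 lies below 0.

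Irradiation changed none of the 7 tested genes past the threshold. No gene of the 7178 was called (0%) in eIF4E or in IgG precipitates by limma, while 82 (1.14%) had an unadjusted p under 0.05 in eIF4E precipitates and 475 (6.62%) in IgG precipitates. The highest of the S100 values was that of S100A10 in eIF4E precipitates, with 22684 to 25992 in irradiated cells and 15052 to 22322 in untreated cells. These arrays did not overlap, which held for 9.40% of all genes and with irradiated cells higher for 4.85% of them, and the log2 difference was 0.36 with a 95% interval of 0.06 to 0.66 (adjusted p = 1, limma). S100A6 in eIF4E precipitates averaged 26554 ± 3673 in irradiated cells and 21125 ± 5530 in untreated cells (SD, n = 3 each), and the interval of its log2 difference was -0.02 to 0.73. The other 5 genes lay between -0.16 and 0.08 in eIF4E precipitates.

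In IgG precipitates the 7 log2 differences lay between -0.18 and 0.14, with adjusted p from 0.846 to 0.967 by limma. The difference between both irradiation effects, eIF4E minus IgG, was 0.41 ± 0.25 for S100A6, 0.29 ± 0.20 for S100A10 and -0.27 ± 0.21 for S100A11 (log2 ± SE; adjusted p = 0.999 each, limma), and none of 7178 genes was called (0%), with 216 (3.01%) at an unadjusted p under 0.05. Same-numbered eIF4E arrays of irradiated and untreated cells varied together clearly for replicate 1 and only weakly for replicates 2 and 3. Taken as 3 pairs, S100A6 and S100A10 were higher after irradiation in each, as were 14.6% of all genes tested. S100A2 and S100A3 were lower in all 3, as were 13.1% of all genes. For S100A10 any pairing gives this result, since its arrays did not overlap, so the pairs add nothing to it. A fit with the replicate number as a block joined same-numbered arrays of every group, the IgG arrays included. Only the eIF4E arrays were taken as pairs. Deviations of same-numbered IgG arrays of irradiated and untreated cells correlated at 0.253, -0.0191 and 0.144 for replicates 1, 2 and 3. The blocked intervals, including any that leave out 0, rest on this wider grouping. With the block, the interval of S100A2 in eIF4E precipitates was -0.36 to 0.15, against -0.76 to 0.55 without it. In the blocked fit S100A6 stood at 0.35 with an interval of 0.07 to 0.64 and S100A10 at 0.36 with an interval of 0.08 to 0.64, and neither was called (adjusted p = 1 each, limma).

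**Figure D4:**
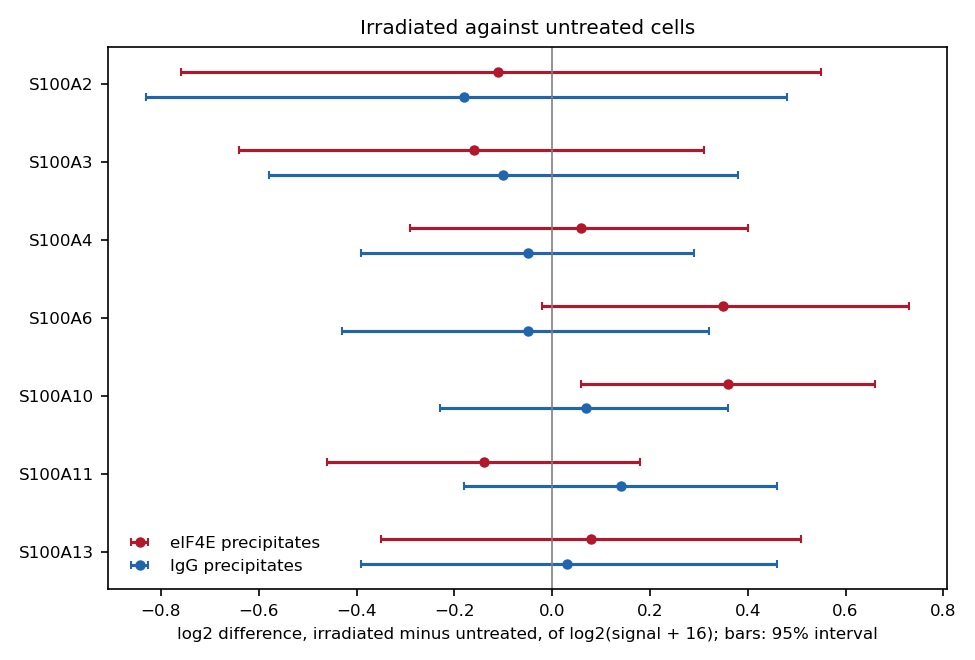
Log2 difference, irradiated minus untreated, of the 7 tested S100 genes in eIF4E and in IgG precipitates; bars are 95% intervals. All intervals include 0 except that of S100A10 in eIF4E precipitates, 0.06 to 0.66, which was not called after adjustment; the fit had no replicate block.

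Part of the spread within groups followed the replicate number. S100A2 in replicate 1 was 1.61 to 2.18 times the mean of replicates 2 and 3 of its group, S100A13 1.19 to 1.65 times, S100A6 1.15 to 1.44 times and S100A4 1.14 to 1.42 times. These 4 of the 7 were highest in replicate 1 in all 4 groups, as were 368 of all genes tested (5.13%), while S100A3, S100A10 and S100A11 went either way. The ratio of the hybridization controls bioB and bioC moved with it, at 0.292 to 0.386 on the 4 arrays of replicate 1 and 0.0313 to 0.0822 on the other 8. Its part in the result was not tested. Replicate 1 is present once in every group.

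**Figure D5:**
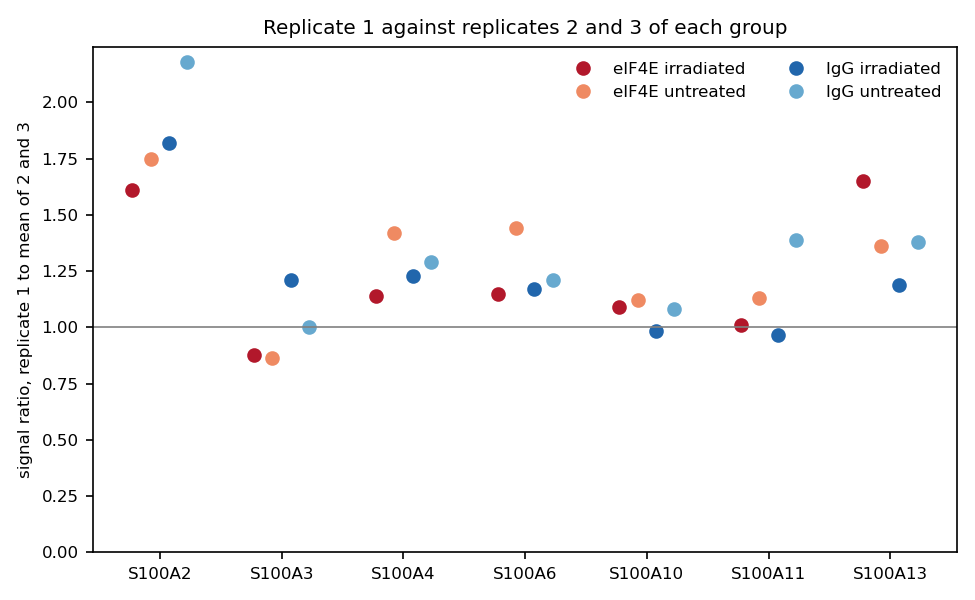
Signal of replicate 1 divided by the mean signal of replicates 2 and 3 of the same group, for the 7 tested S100 genes in the 4 groups; the line at 1 marks equal signals. S100A2 lies between 1.61 and 2.18 in all 4 groups, and S100A3 between 0.862 and 1.21.

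The remaining 2 genes were near background. S100A8, which pairs with S100A9 to form the calprotectin of neutrophils, had 4.85 to 58.0 in eIF4E precipitates and 2.64 to 30.2 in IgG precipitates by its brighter probe set, and 1.85 to 11.1 and 1.08 to 12.8 by the other. S100P, a placental and tumour protein that binds ezrin, had 2.08 to 23.2 and 2.51 to 34.7. For comparison, the median of 48 probe sets of markers of other tissues was 8.53 to 14.9 on eIF4E arrays and 5.30 to 23.3 on IgG arrays. Their 90th percentile was 35.3 to 48.9 on eIF4E arrays and 44.1 to 65.5 on IgG arrays. S100P stayed below it on every array. S100A8 rose above it only on eIF4E replicate 3 of irradiated cells, at 58.0 against 42.2. Of the other S100 genes on the array, S100A1, S100A5, S100A7, S100A9, S100A12, S100A14, S100B and S100G, none of the 8 passed the filter. S100A5 was at 35.9 to 104.5 in eIF4E precipitates and 4.51 to 62.0 in IgG precipitates, and its gene overlaps S100A4 in the annotation.

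Binding partners and receptors of S100 proteins were taken as a list, and 15 of them were tested. For the mean of both treatments 5 were called higher in eIF4E precipitates, 8 lower and 2 not, where 32.5% of all genes tested were called higher and 38.2% lower. Their median log2 difference was -0.47, against -0.07 for all genes, and -0.23 after quantile normalization. The S100A9 receptor basigin (BSG, 1.63 ± 0.14), the phosphatase PPP5C (1.59 ± 0.15) and annexin A11 (ANXA11, 1.24 ± 0.14) were highest. The scaffold AHNAK (-1.73 ± 0.13), nucleolin (NCL, -1.70 ± 0.09) and the scaffold IQGAP1 (-1.53 ± 0.16) were lowest (log2 ± SE, limma). ANXA2, the partner of S100A10, was lower at -0.93 ± 0.12 in the deposited signals and at -0.22 ± 0.07 after quantile normalization (adjusted p = 0.00765, limma). ANXA1, the partner of S100A11, was higher at 0.33 ± 0.09. MYH9, the myosin bound by S100A4, was lower at -1.39 ± 0.21, and CACYBP, the partner of S100A6, was at -0.15 ± 0.09 and not called (adjusted p = 0.174, limma), but was called lower after quantile normalization, at -0.22 (adjusted p = 0.0369, limma).

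Of other EF-hand proteins 23 were tested, and 13 were called higher, 6 lower and 4 not, where 32.5% of all genes tested were called higher and 38.2% lower. Their median log2 difference was 0.57, against -0.07 for all genes. After quantile normalization 13 were called higher, 5 lower and 5 not, with a median of 0.50. With each array centred on its median 13 were called higher, 4 lower and 6 not, with a median of 0.70. The calpain subunit CAPNS1 (2.37 ± 0.13) and the myosin light chains MYL9 (2.00 ± 0.18) and MYL12A (1.59 ± 0.15) were highest. The actin-binding proteins ACTN1 (-1.37 ± 0.12) and PLS3 (-0.88 ± 0.09) and the reticulum protein RCN1 (-0.83 ± 0.12) were lowest (log2 ± SE, limma). Irradiation changed none of the genes tested in either list past the threshold.

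Along chromosome 1 the tested genes run in the order S100A10, S100A11, S100A6, S100A4, S100A3, S100A2 and S100A13, with other S100 genes between them. S100A6, S100A4 and S100A3 lie close together and differed by -0.75, 0.13 and 1.90 on the log2 scale in the deposited signals. After quantile normalization all 3 were called higher, at 0.29, 0.75 and 2.01. S100P lies on chromosome 4.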

How the data were processed

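RNA from eIF4E and IgG precipitates of MDA-MB-231 cells was measured on 12 arrays. The deposited values are signal intensities on a linear scale, made by the authors with MAS5 per the submitters' processing notes (version not given in the sources used here), and how much RNA was labelled is likewise not given. Groups and replicate numbers were taken from the titles. Of 22277 probe sets 62 were controls, 1043 had several genes and 2108 none. The symbols of 19052 were matched to the RefSeq table of GRCh38.p14. Each of 11963 genes was represented by its brightest probe set, with an _x_at probe set used if the gene lacked any different kind, and genes with a mean under the 40th percentile (57.4) were left out. The deposited signals were changed to log2(signal + 16) and fitted with limma 3.58.1 in R 4.3.3 (4 group means, variance trend), and adjusted with Benjamini-Hochberg at 0.05. This scale understates changes of dim genes, and the number of arrays limits precision.

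The genes and lists were chosen with earlier results of these data known. All probe sets of the 9 genes are named, up to 3 genes at either end of each related list, and the 3 genes nearest in profile to the called genes with the highest and the lowest difference. Partners of a named S100 gene were added after their values were seen. Start sequences came from the RefSeq table, where all 9 genes had an entry. Deviations of same-numbered eIF4E arrays of irradiated and untreated cells correlated at 0.374, 0.208 and 0.181 for replicates 1, 2 and 3. The highest correlations with another number were -0.233, 0.118 and 0.111, so only replicate 1 stood well apart. These arrays were taken as pairs, which rests on the data and not on the labels and is weak for replicates 2 and 3. The other 5 pairings of groups each held a number with a correlation below 0.1. Results were recomputed with pseudocounts of 1 and 64, a stricter filter and none, quantile normalization or median centring, the replicate number as a block, weighted arrays, an untrended variance, a fit limited to the groups in question, other probe set rules, and with replicate 1 or single arrays omitted. Figures were drawn with matplotlib 3.10.9.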

Additional observations from a re-analysis of the deposited data

How the results depend on the processing

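S100A2, S100A3, S100A11 and S100A13 kept their sign and their call in the antibody comparisons under every alternative run. S100A6 turned under quantile normalization, to 0.46 in irradiated cells (adjusted p = 0.00146), 0.12 in untreated cells (adjusted p = 0.327) and 0.29 as the mean, and S100A4 gained a call there, at 0.65, 0.85 and 0.75 (all limma). The cause was not tested. Median centring moved the median of all genes from -0.07 to 0.06 and left S100A6 in irradiated cells uncalled (-0.39, adjusted p = 0.0988). Without a filter on dim genes S100A6 in irradiated cells (adjusted p = 0.0609) and S100A10 in untreated cells (adjusted p = 0.0665) were not called, nor was S100A10 in untreated cells without replicate 1 of every group (0.39, adjusted p = 0.0506, all limma). With each array left out in turn, 5 to 6 of the 7 genes were called in either treatment, 6 as the mean and 0 for irradiation. Over all genes, irradiation gave 2 calls in eIF4E precipitates with array quality weights, and in IgG precipitates 1 with no variance trend, 1 with probe set means and 0 to 1 with an array left out, the 1 being without replicate 1 of the untreated cells. With the replicate number as a block, 4486 genes were called between antibodies in irradiated cells, 4465 in untreated cells and 5244 as the mean, 0 for irradiation, and no call of an S100 gene changed. Fitting only the groups compared gives no value for the mean or for the difference of irradiation effects. Dim genes such as S100A8 and S100P are limited by signal over background.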

Other observations

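Genes whose profile over the 12 arrays lay nearest to that of an S100 gene were found by the root mean square distance of log2 values, each centred on its own mean. This distance includes the difference between antibodies, for which S100A11 and S100A6 were picked. Both the picking and the distances used the deposited signals. S100A6 stood at 0.29 after quantile normalization, and nearest genes were not sought on that scale. For S100A11 the nearest were EIF4EBP1, a protein that binds eIF4E and blocks initiation, at 0.113, GET3 at 0.131 and RRAS at 0.133. The median over all other genes tested was 1.18. EIF4EBP1, GET3 and RRAS differed by 2.27, 2.23 and 2.31 between antibodies on the log2 scale, against 2.20 for S100A11. For S100A6 the nearest were the ribosomal protein genes RPL37A at 0.081, RPS10 at 0.087 and RPL41 at 0.105, with a median of 0.541. These 3 differed by -0.67, -0.79 and -0.84 between antibodies on the log2 scale, against -0.75 for S100A6.

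The S100 genes are short, and the difference between antibodies varied with the length of the gene in the genome, a measure chosen after the data were seen. The tested genes were parted by span into 5 classes of nearly equal size. The shortest class had a median log2 difference of 0.55 with 59.2% called higher and 14.7% lower. The next had 0.20 with 43.6% higher and 23.2% lower, and the longest had -0.67 with 11.1% higher and 64.5% lower. Over 7176 genes, which share these arrays and are not independent, Spearman's rho was -0.47. S100A2, S100A3, S100A4, S100A6 and S100A11 lie in the shortest class, and S100A10 and S100A13 in the next. Of those in the shortest class, S100A2, S100A3 and S100A11 were called higher in the deposited signals, S100A6 lower and S100A4 not. Both genes in the next class were called higher. S100A6 has a span of 1393 bases, the shortest of the 7 tested. It was called lower in the deposited signals (-0.75) and higher after quantile normalization (0.29, adjusted p = 0.00236, limma). The part of gene length in the S100 results was not tested.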
